A study of Mus musculus with 10 samples.

Results

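The genes described here encode the cytosolic translation initiation factors (Eif1 to Eif6) and elongation factors (Eef1 and Eef2), with their close paralogs and direct modifiers. They were taken by name: of 41743 gene names in the count tables, 68 begin with Eif1 to Eif6, Eef1 or Eef2 once the eIF2 kinases (Eif2ak) are set aside, and 64 of these had at least 10 counts summed over 10 libraries. The 4 names under that minimum were Eef1a2 with 5 counts, Eif2c5 with 2, and Eif4e1b and Eif2s3y with 0. Poly-A RNA was sequenced from 5 mouse lines with 2 libraries each. Parental cells were untreated K7M2, a mouse osteosarcoma line, with the ezrin genotype given as WT. In the other 4 lines, all derived from K7M2, the ezrin gene had been disrupted with CRISPR/Cas9. One of them stably carried an empty vector, and the rest an ezrin cDNA: wild type, T567A or T567D. Ezrin ties actin filaments to the plasma membrane. T567 is a threonine whose phosphorylation favours the open form of ezrin. T567A cannot be phosphorylated there and T567D mimics the phosphorylated residue. The titles of these lines share 1 tag, read here as 1 disrupted clone, and each construct is present in 1 stable line. Disruption, cloning and transfection therefore cannot be told apart in a comparison with parental cells, nor a construct from the line that carries it.

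Translation begins when eIF2, loaded with GTP and initiator tRNA, joins eIF1, eIF1A, eIF3 and eIF5 on the small ribosomal subunit, and eIF4F (the cap-binding eIF4E, the scaffold eIF4G and the helicase eIF4A) recruits this complex to the capped end of an mRNA for scanning to the start codon. eIF2B recharges eIF2 with GTP, and the eIF4E-binding proteins hold eIF4E back until mTORC1 phosphorylates them. In elongation, eEF1A delivers aminoacyl-tRNA, the eEF1B subunits recharge eEF1A, eEF2 moves the ribosome along by 1 codon, and eIF5A relieves stalling. Many elongation factor mRNAs start with a C followed by a run of pyrimidines, the terminal oligopyrimidine tract, through which mTORC1 controls their translation.

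The start regions of 6 members are shown, chosen from a larger number of members with calls that held in every alternative tried. Eef2, Eef1a1 and Eif1ax were lower in derived lines, Eif2b4 and Eif5a2 were higher there, and Eef2k was lower in T567A cells. Each run covers 50 bases before and 20 bases from the annotated start, 5′ to 3′ on the gene's strand, from RefSeq on GRCm38.p6. Capitals mark the E-box CACGTG, the TATA box TATAAA, the cAMP response element TGACGTCA and the ETS site CCGGAAGT. Runs of the same extent for Eif2a, Eif4g3 and Eif3b, which also had calls that held, contained none of these sites and are not printed.
Eef2: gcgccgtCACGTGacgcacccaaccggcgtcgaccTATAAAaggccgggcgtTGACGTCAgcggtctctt
Eef1a1: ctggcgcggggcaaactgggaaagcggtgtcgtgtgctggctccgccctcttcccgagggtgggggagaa
Eif1ax: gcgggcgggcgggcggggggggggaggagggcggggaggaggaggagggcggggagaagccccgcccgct
Eif2b4: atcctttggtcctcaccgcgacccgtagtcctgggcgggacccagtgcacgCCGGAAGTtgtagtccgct
Eif5a2: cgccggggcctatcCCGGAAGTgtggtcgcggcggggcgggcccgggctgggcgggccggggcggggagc
Eef2k: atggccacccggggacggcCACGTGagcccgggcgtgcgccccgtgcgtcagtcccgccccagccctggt
The runs lie at chr10:81176581-81176650 (plus strand) for Eef2, chr9:78481705-78481774 (minus) for Eef1a1, chrX:159372128-159372197 (plus) for Eif1ax, chr5:31193120-31193189 (minus) for Eif2b4, chr3:28781227-28781296 (plus) for Eif5a2 and chr7:120842781-120842850 (plus) for Eef2k, for which RefSeq gives 3 start windows and 1 is shown. Start windows of 300 bases (250 before and 50 from the start) were matched by name for 48 members and set beside 27025 genes, with both strands searched. Members without a matched window are not counted. The 27025 are all genes with a window, expressed here or not, unlike the 12595 tested, so the shares below are not matched for expression. The E-box, which reads the same on both strands, was present in 14 of 48 members (29.2%) and in 8.09% of the 27025 genes, and the ETS site in 8 of 48 (16.7%) and in 4.31%. TATAAA was present in 4 of 48 members (8.33%) and in 15.7% of genes, and TGACGTCA in 1 of 48 (2.08%, Eef2) and in 2.03%. A C followed by at least 6 C or T within the first 50 transcribed bases, read on the sense strand, was present in 16 of 48 members (33.3%) and in 23.4% of genes. Of the elongation factor genes with a window, Eef2 and Eef1e1 had such a run and Eef1a1 and Eef1b2 did not. A run at a start other than the annotated one would be missed, so its absence does not show that an mRNA lacks the tract. These matches describe letters in the windows, and were not tested against the expression values.

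Total counts per library lay between 14679424 and 18230763, both in T567A cells, where the 2 libraries also differed most from each other. Mitochondrially encoded genes took 1.9% and 1.44% of counts in T567A libraries and 0.844% to 1.33% in the other 8. Ezr itself was at 164.9 ± 1.15 CPM (counts scaled to a common library size by TMM-adjusted totals; SD, n = 2) in parental cells and 72.6 ± 0.335 in empty-vector cells, with 232 ± 2.14, 250.3 ± 3.6 and 192.7 ± 15.9 in the wild-type, T567A and T567D lines. Of the bone markers, Col1a1, Col1a2, Sparc, Spp1 and Runx2 had line means of at least 32.6 CPM, Alpl of 1.98 to 12.9 CPM, while Sp7, Ibsp and Bglap stayed at or under 0.174 CPM and Dlx5 had 0 counts. Of the leukocyte markers Ptprc, Adgre1 and Itgam were at or under 0.207 CPM and Cd68 at 1.87 to 2.48 CPM, yet Csf1r was at 1180 to 1619 CPM. Of the endothelial markers Cdh5 was at 0.923 to 1.8 CPM, and Pecam1, Kdr and Tek were at or under 0.374 CPM. Of the epithelial markers Epcam had 0 counts, and Cdh1, Krt8, Krt18 and Krt14 were at or under 0.259 CPM. In such bulk RNA, less RNA per cell and fewer cells of a kind cannot be told apart. The labels do not state separate cultures for the libraries of a line. The p-values then measure only how far these libraries spread, and that spread may be technical.

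By deposited RPKM, which divides by gene length and so allows genes to be compared, Eef1a1 was the highest member at a mean of 4155 over the 10 libraries, followed by Eef2 at 1347, Eef1g at 548.2 and Eif5a at 472.9. The highest initiation subunits were Eif3h at 284.3, Eif4a1 at 234.6 and Eif1 at 219.3 RPKM. Some paralogs lay far lower, with Eif4g3 at 8.29, Eif5a2 at 3.5 and Eif4e3 at 1.89 RPKM. Others did not, such as Eif4g2 at 134.3 beside Eif4g1 at 154 RPKM. All members together took 4.11% and 3.96% of the counts in parental libraries and 3.2% to 3.47% in derived ones. Eef1a1 and Eef2 accounted for most of that gap: Eef1a1 took 1.45% and 1.33% of parental counts and 0.961% to 1.15% of derived ones, and Eef2 took 0.699% and 0.693% against 0.369% to 0.454%. The remaining members took 1.95% and 1.93% of parental counts and 1.79% to 1.93% of derived ones.

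Of the 64 members, 63 passed the filter on low counts, and Eif4ebp3 (0 to 0.39 CPM), an eIF4E-binding protein, was not tested. Calls were made at an adjusted p under 0.05, by Benjamini-Hochberg over 12595 genes, from the quasi-likelihood test of edgeR. It found 53 of 63 members (84.1%) to differ somewhere over the 5 lines, beside 78% of all genes. The 10 not called were Eif5b, Eif5, Eif2b1, Eif2b2, Eif3a, Eif3d, Eif4b, Eef1d, Eef1akmt1 and Eef1akmt3. The differences were small: the median absolute log2 difference of members was 0.16 in empty-vector minus parental cells, beside 0.30 over all genes, and 0.14 beside 0.23 in T567A minus wild-type cells. The genes tested were not matched to the members for expression, so the smaller medians are not read as a trait of these factors. 

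The 4 comparisons with parental cells share the same 2 parental libraries, so their values are set side by side only. Each derived line had more members lower than higher, with Eef2, Eef1a1, Eif1ax, Eif1b and Eif2b5 lower and Eif4e3, Eif5a2, Eif2b4 and Eif2a higher. In empty-vector cells 10 members rose and 20 fell of 63, beside 27.4% and 27.2% of all genes, with a median log2 change of -0.08. In wild-type cells 6 rose and 27 fell, beside 27.7% and 28.5%, with a median of -0.12. In T567A cells 17 rose and 23 fell, beside 31.4% and 30.7%, with a median of -0.05. In T567D cells 6 rose and 29 fell, beside 27.1% and 28.2%, with a median of -0.17. Without parental replicate 1 there were 6 and 18, and limma on log2(RPKM + 0.1) gave 8 and 19. The median over all genes lay between 0.00 and 0.01 in each. By the fitted values, 5 called members in the empty-vector, 4 in the wild-type, 5 in the T567A and 4 in the T567D line changed over 2-fold. Each number includes 2 copies of Eif4a3 without a count in parental cells. Over all genes the shares over 2-fold were 13.2%, 13%, 15% and 12.5%. In empty-vector cells the counts of these copies show only increases of at least 1.96-fold (Eif4a3l1) and 1.46-fold (Eif4a3l2), so a change over 2-fold is not shown for them there.

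**Figure D1:**
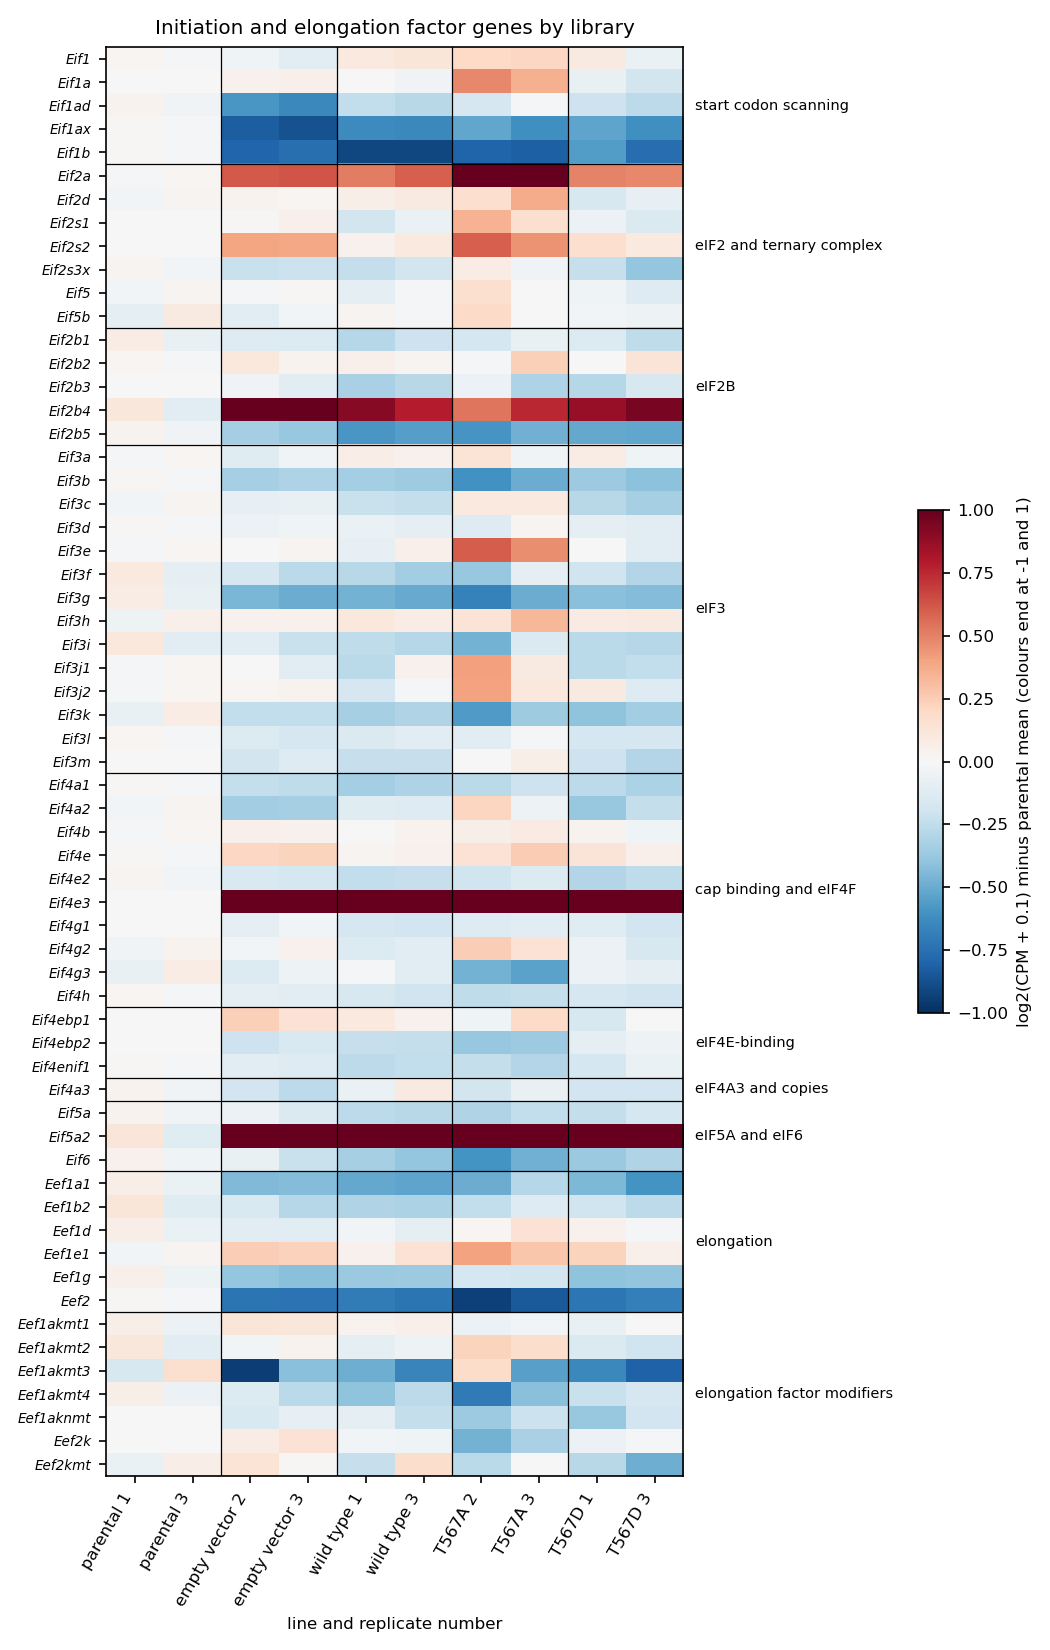
Level of each tested member except the Eif4a3 copies (rows, by role) in each library (columns), as log2(CPM + 0.1) minus the parental mean; red is higher, blue lower, and colours end at -1 and 1. Eif4e3, Eif5a2, Eif2b4 and Eif2a are red and Eef2, Eif1b and Eif1ax blue in all 8 derived libraries, and Eif3e and Eif1a are red in the 2 T567A libraries.

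Among lines with an ezrin cDNA, T567A cells differed in many members from wild-type and T567D cells. T567D cells differed in none from wild-type cells. T567A and T567D cells were not compared with empty-vector cells. In T567A minus wild-type cells 38.1% of members were called, no larger a share than over all genes, so the number of calls is not particular to these factors. In T567D minus wild-type cells only 0.818% of all genes were higher and 0.524% lower, so few calls among members could occur there. Against wild-type cells, 19 members rose in T567A cells and 5 fell, beside 20.4% and 19.1% of all genes, with a median log2 difference of 0.09. Scaling by the upper quartile in place of TMM gave 15 higher and 8 lower. Leaving out wild-type replicate 1 left 9 higher and 3 lower. Without T567A replicate 2 there were 20 higher and 2 lower, and without T567A replicate 3 there were 19 and 11. The 11 calls that held in every one of the alternatives were increases of Eif3e, Eif2a, Eif5a2, Eif2s2, Eif1a, Eif2s1, Eif3c, Eif4g2 and Eif3m and decreases of Eif4g3 and Eef2k. Of these genes, Eif2a, Eif2s2, Eif3m, Eif4g3 and Eef2k overlap another annotated gene, which makes their counts uncertain. Against T567D cells, 20 members were higher in T567A cells and 8 lower, beside 22.5% and 21.6% of all genes. These became 23 and 3 without T567A replicate 2 and 16 and 3 without T567D replicate 3. T567A libraries enter both of these comparisons.

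T567D and wild-type cells did not differ in any member by edgeR's quasi-likelihood test, where 0.818% of all genes were higher and 0.524% lower in T567D cells. At an unadjusted p under 0.05 there were 6 members, with 3 by DESeq2 and 6 by limma, and neither of those tools called a member after adjustment. The farthest values in each direction were -0.37 ± 0.14 (log2, SE) for Eef2kmt, an eEF2 methyltransferase, and 0.26 ± 0.09 for Eif1b, a paralog of Eif1. The median absolute difference of members was 0.06. Wild-type minus empty-vector cells gave 5 higher and 6 lower members, beside 8.25% and 7.36% of all genes. That count fell when any 1 library of these lines was left out, which leaves 1 library in a line. The count over all genes fell in each of these fits too. The calls that held in every alternative were a decrease of Eif2s2 and an increase of Eif1ad. Scaling by the upper quartile turned the split to 6 higher and 3 lower, DESeq2 to 5 and 4, and limma to 4 and 3.

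Elongation factors gave the largest changes in CPM. In empty-vector minus parental cells 27.2% of all genes fell and 27.4% rose. Of 6 tested genes, 4 fell and 1 rose in empty-vector minus parental cells, and 3 to 5 fell when single libraries were left out. Eef2, the translocase (chromosome 10, 81176631 to 81182498), was at 7200 and 7105 CPM in the parental, 4313 and 4278 in the empty-vector, 4413 and 4310 in the wild-type, 3738 and 4002 in the T567A and 4331 and 4452 in the T567D libraries. The parental libraries lay above every derived library, and the T567A ones below the rest. Against parental cells, Eef2 fell by 0.74 ± 0.06 on the log2 scale in empty-vector cells (SE; adjusted p = 3e-10), with changes of -0.71 in the wild-type, -0.89 in the T567A and -0.70 in the T567D line, each called. The further decrease in T567A minus wild-type cells was -0.17 ± 0.06 (adjusted p = 0.017), and that call was lost without T567A replicate 2 (-0.12) or either wild-type library (replicate 1, -0.16; replicate 3, -0.19).

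Eef1a1, the carrier of aminoacyl-tRNA and the most abundant member, was at 14960 and 13610 CPM in the parental, 10530 and 10580 in the empty-vector, 10020 and 9902 in the wild-type, 10140 and 11710 in the T567A and 10460 and 9431 in the T567D libraries. No derived library reached the lower parental one. The log2 changes were -0.44 ± 0.07 in empty-vector (adjusted p = 1.7e-05), -0.52 in the wild-type, -0.39 in the T567A and -0.52 in the T567D line. Processed copies of Eef1a1 are common in mammalian genomes, so reads may be shared with them. Its paralog Eef1a2, typical of muscle and neurons, was below the count minimum. Among the exchange factor subunits, Eef1g, a scaffold of the eEF1B complex, was at 1902 and 1771 CPM in the parental, 1405 and 1370 in the empty-vector, 1417 and 1430 in the wild-type, 1622 and 1619 in the T567A and 1385 and 1393 in the T567D libraries. The T567A values lay between those of parental cells and those of the other derived lines. Eef1g changed by -0.40 in empty-vector and T567D and -0.37 in wild-type minus parental cells, and T567A minus T567D cells gave 0.22 ± 0.06 (adjusted p = 0.0028). Eef1b2, which holds the exchange activity, was at 652 and 550 CPM in the parental libraries and 481 to 547 in derived ones. Its call in wild-type minus parental cells (-0.31) was lost without parental replicate 1 (-0.18), as were those in the other derived lines. Eef1d, another exchange subunit, was not called in any comparison, at 353 to 422 CPM. Eef1e1, a scaffold of the aminoacyl-tRNA synthetase complex despite its name, was at 52.7 and 54.6 CPM in the parental, 63.6 and 63 in the empty-vector, 55.2 and 59.4 in the wild-type, 71 and 65.1 in the T567A and 62.8 and 55.5 in the T567D libraries. The T567A libraries were the highest, and Eef1e1 rose by 0.34 ± 0.08 in T567A minus parental cells (adjusted p = 0.00058).

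Of 7 tested modifiers of the elongation factors, 1 rose and 1 fell in T567A minus wild-type cells, with 0 higher when either wild-type library or T567A replicate 2 was dropped, and 2 lower when T567A replicate 3 was. Eef2k, the kinase that inhibits eEF2, was at 27.9 and 30.9 CPM in the T567A libraries, and at 38.5 and 38.9 in the parental, 40.7 and 42.9 in the empty-vector, 38 and 37.6 in the wild-type and 37.2 and 38.4 in the T567D libraries. The T567A libraries lay below all 8 others. The difference was -0.36 ± 0.08 in T567A minus wild-type cells (adjusted p = 0.0013), -0.36 in T567A minus T567D and -0.39 in T567A minus parental cells. Eef1akmt4, a lysine methyltransferase of eEF1A, was at 25.7 and 23.6 CPM in the parental, 22.4 and 20.5 in the empty-vector, 18.6 and 20.6 in the wild-type, 15.1 and 18.4 in the T567A and 21.1 and 21.9 in the T567D libraries. The T567A libraries were the lowest, and differed by -0.55 ± 0.10 from parental cells (adjusted p = 0.00011). An overlapping gene, Alg3, makes its count uncertain. Eef1akmt2, another lysine methyltransferase of eEF1A, was at 23.7 and 22.8 CPM in the T567A libraries and 17.6 to 21.8 in the others, and exceeded T567D cells by 0.37 ± 0.10 (adjusted p = 0.0035). Eef1aknmt, a methyltransferase of the start and of a lysine of eEF1A, was lower than in parental cells by -0.28 in both T567A and T567D cells, calls lost without T567A replicate 2 (-0.21) and without T567D replicate 1 (-0.19). No modifier was called in empty-vector minus parental cells, where 27.4% of all genes were higher and 27.2% lower. In T567A minus wild-type cells 20.4% of all genes were higher and 19.1% lower.

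Factors of start codon scanning were split between paralogs. Eif1ax, the X-linked gene for eIF1A, which opens the small subunit for scanning (chromosome X, 159372178 to 159389928), was at 196 and 192 CPM in the parental, 109 and 106 in the empty-vector, 125 and 124 in the wild-type, 135 and 126 in the T567A and 134 and 126 in the T567D libraries. Every derived library lay below both parental ones. The log2 change was -0.85 ± 0.06 in empty-vector cells (adjusted p = 1.8e-10), -0.64 in the wild-type, and -0.57 in T567A and T567D cells. Eif1a, an autosomal gene for the same factor, was at 185 and 186 CPM in the parental, 191 and 192 in the empty-vector, 185 and 181 in the wild-type, 259 and 237 in the T567A and 176 and 163 in the T567D libraries. Only the T567A libraries stood above the rest. Eif1a rose by 0.44 ± 0.06 in T567A minus wild-type (adjusted p = 1e-05) and by 0.42 in T567A minus parental cells. The ratio of Eif1ax to Eif1a, both in RPKM, was 0.838 and 0.816 in the parental libraries, 0.414 and 0.422 in the T567A, 0.435 to 0.452 in the empty-vector, 0.533 and 0.542 in the wild-type and 0.603 and 0.612 in the T567D libraries. The genes are close in sequence, so reads may be shared between them.

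Eif1, which guards the choice of start codon, was at 483 and 469 CPM in the parental, 462 and 442 in the empty-vector, 510 and 517 in the wild-type, 546 and 549.6 in the T567A and 506 and 455 in the T567D libraries. Its paralog Eif1b was at 39.4 and 38.9 CPM in the parental, 22.5 and 23.1 in the empty-vector, 20.8 and 20.7 in the wild-type, 22.4 and 22.2 in the T567A and 26.6 and 23 in the T567D libraries. All derived Eif1b values lay below both parental ones. It changed by -0.78 ± 0.09 in empty-vector cells (adjusted p = 1e-07), -0.91 in the wild-type, -0.81 in the T567A and -0.66 in the T567D line. Eif1ad, which is named for a domain like that of eIF1A, was at 164 and 157 CPM in the parental, 107 and 103 in the empty-vector, 135 and 132 in the wild-type, 143 and 159 in the T567A and 139 and 134 in the T567D libraries. The empty-vector libraries were the lowest. The wild-type line was higher than the empty-vector line by 0.35 ± 0.07 (adjusted p = 0.00095). Eif1ad and Eif1b each overlap another annotated gene (Banf1 and D830035M03Rik), which makes these counts uncertain.

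Genes of eIF2 and of tRNA delivery to the start codon were mostly higher in T567A cells. Against wild-type cells 4 of 7 rose, beside 20.4% of all genes, and against T567D cells 6 of 7, beside 22.5%, with none lower. Without single libraries these counts were 3 to 6 and 5 to 7. Eif2a, a factor that can deliver initiator tRNA apart from eIF2 (chromosome 3, 58525821 to 58557501), was at 78.2 and 80.2 CPM in the parental, 122 and 122 in the empty-vector, 113 and 120 in the wild-type, 168 and 159 in the T567A and 112 and 110 in the T567D libraries. Parental libraries were the lowest and T567A libraries the highest, with no overlap. The increase over parental cells was 1.04 ± 0.06 in T567A cells (adjusted p = 5.9e-12), 0.62 in the empty-vector, 0.55 in the wild-type and 0.49 in the T567D line. T567A exceeded wild-type cells by 0.49 ± 0.06 (adjusted p = 2.1e-06). Serp1 overlaps Eif2a on the opposite strand, which makes its count uncertain.

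Of the eIF2 subunits proper, Eif2s2 (eIF2 beta) was at 356 and 355 CPM in the parental, 468 and 466 in the empty-vector, 366 and 382 in the wild-type, 538 and 486 in the T567A and 400 and 381 in the T567D libraries. Empty-vector and T567A libraries were the high ones. Eif2s2 rose by 0.39 ± 0.06 in empty-vector minus parental cells (adjusted p = 1.2e-05) and by 0.45 in T567A minus wild-type cells, and it was lower by -0.32 in wild-type minus empty-vector cells. Eif2s1 (eIF2 alpha, the subunit phosphorylated in the integrated stress response) was at 212 and 213 CPM in the parental, 215 and 219.9 in the empty-vector, 187 and 203 in the wild-type, 271 and 238 in the T567A and 205 and 192 in the T567D libraries. The T567A libraries lay above the other 8. Its difference from wild-type cells was 0.38 ± 0.07 (adjusted p = 0.00014). Eif2s3x (eIF2 gamma, X-linked) was at 894 and 863 CPM in the parental, 751 and 756 in the empty-vector, 746 and 773 in the wild-type, 926 and 859 in the T567A and 748 and 673 in the T567D libraries. T567A and parental libraries overlapped above the others, and T567A minus T567D cells gave 0.33 ± 0.06 (adjusted p = 0.00021). Its Y-linked copy Eif2s3y had 0 counts. Eif2d, a tRNA delivery factor that does not need GTP, was higher in T567A than in T567D cells by 0.40 ± 0.08 (adjusted p = 0.00054).

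The subunits of eIF2B, the exchange factor for eIF2, did not move together. Eif2b4 (delta subunit, chromosome 5, 31187558 to 31193430) was at 39.8 and 34 CPM in the parental, 79.9 and 81.2 in the empty-vector, 69.4 and 63.6 in the wild-type, 53.4 and 62.1 in the T567A and 67.4 and 71.1 in the T567D libraries. All derived libraries exceeded both parental ones, with the empty-vector line highest. Its log2 change was 1.13 ± 0.09 in empty-vector cells (adjusted p = 3e-10), 0.85 in the wild-type, 0.65 in the T567A and 0.91 in the T567D line. Snx17 overlaps it on the opposite strand, and whether strand was used in counting is not given in the sources used here. Eif2b5 (epsilon, the catalytic subunit) went the other way, at 111 and 106 CPM in the parental, 85.8 and 83.6 in the empty-vector, 72.6 and 73.9 in the wild-type, 72 and 77.7 in the T567A and 76 and 75.6 in the T567D libraries. Its log2 change was -0.36 ± 0.06 in empty-vector (adjusted p = 7.1e-05), -0.57 in the wild-type, -0.53 in the T567A and -0.52 in the T567D line. Eif2b2 (beta) was not called anywhere, at 66.7 to 79.8 CPM. The ratio of Eif2b4 to Eif2b2 in RPKM was 0.42 and 0.37 in the parental libraries and 0.564 to 0.848 in derived ones. Eif2b1 (alpha) and Eif2b3 (gamma) differed from parental cells by -0.25 and -0.30 in the wild-type line, the first a call lost without parental replicate 1 (-0.17) or wild-type replicate 1 (-0.21).

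**Figure D2:**
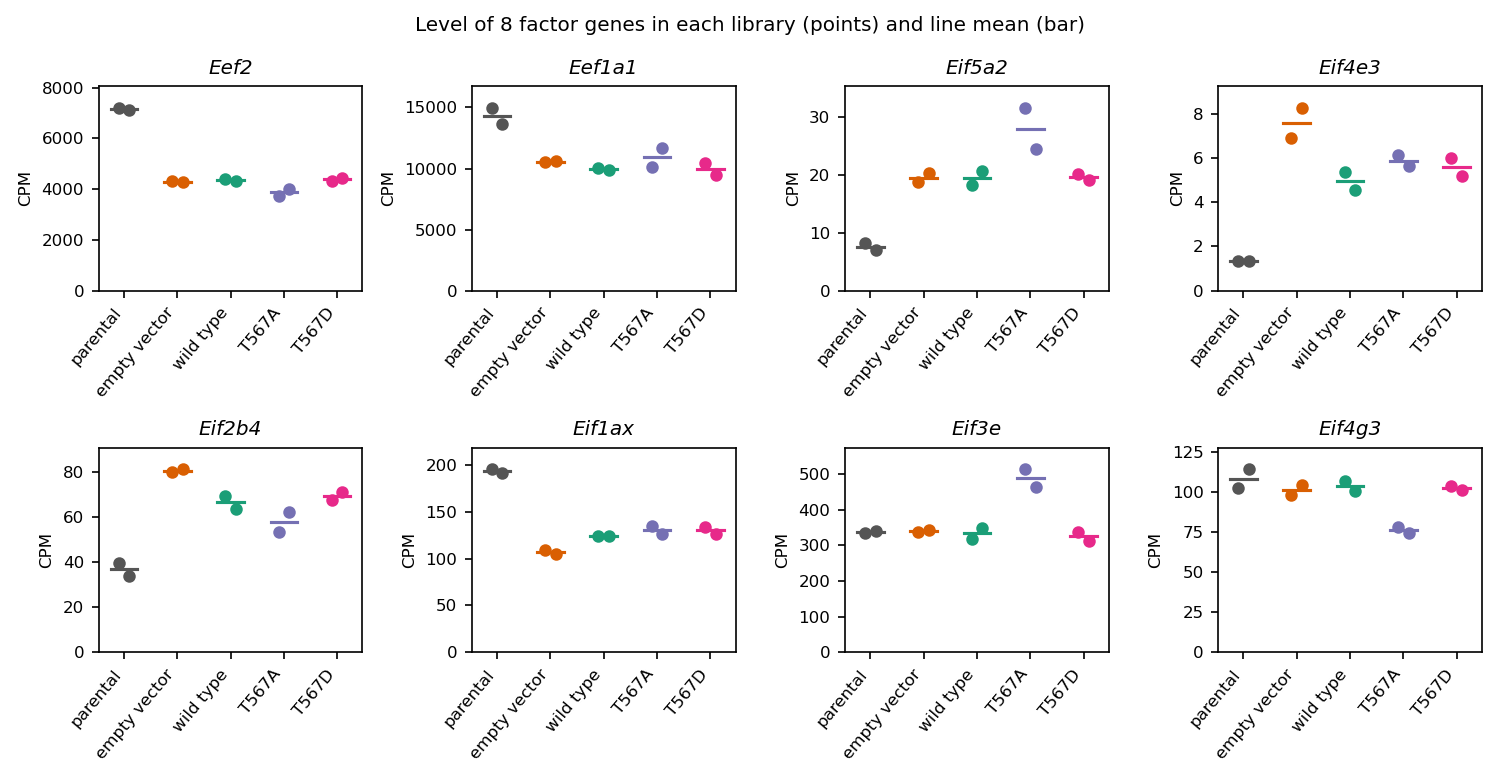
CPM of 8 members (1 panel each, axes from 0) in each library (points) with the mean of each line (bar); lines are on the horizontal axis. Eef2, Eef1a1 and Eif1ax are highest and Eif5a2, Eif4e3 and Eif2b4 lowest in parental libraries, while Eif3e (513 and 464 CPM) and Eif4g3 (78.1 and 74.7 CPM) set the T567A libraries apart.

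eIF3, the large scaffold on the small subunit, was represented by 14 tested genes. In empty-vector minus parental cells 6 fell and the other 8 were not called, beside 27.2% of all genes lower and 27.4% higher. Without parental replicate 1 or empty-vector replicate 3, 3 fell, and without either of the other libraries 5 and 4 did. Eif3g, which binds RNA during scanning, was at 206 and 186 CPM in the parental, 142 and 139 in the empty-vector, 141 and 138 in the wild-type, 123 and 138 in the T567A and 147 and 145 in the T567D libraries, all derived libraries lying below the parental ones. Its log2 change was -0.48 ± 0.07 in empty-vector cells (adjusted p = 3.6e-06), -0.49 in the wild-type, -0.58 in the T567A and -0.43 in the T567D line. Eif3b was at 536 and 522 CPM in the parental, 421 and 427 in the empty-vector, 419 and 414 in the wild-type, 347 and 376 in the T567A and 410 and 397 in the T567D libraries. The parental libraries were highest and the T567A libraries lowest. It changed by -0.32 ± 0.06 in empty-vector (adjusted p = 7.6e-05) and -0.55 in T567A minus parental cells. The core subunit Eif3a was not called in any comparison, at 979 and 1007 CPM in the parental, 914 and 970.1 in the empty-vector, 1042 and 1022 in the wild-type, 1090 and 969.5 in the T567A and 1048 and 964 in the T567D libraries. Eif3k differed from parental cells by -0.32 in the wild-type, -0.45 in the T567A and -0.38 in the T567D line. Eif3i, which sits beside Eif3g and Eif3b, was at 203 and 175 CPM in the parental and 136 to 174 in the derived libraries. Eif3f and Eif3l were among the 6 that fell in empty-vector cells (-0.22 and -0.15), calls lost without parental replicate 1 (-0.13 and -0.15) or empty-vector replicate 3 (-0.17 and -0.13) and, for Eif3l, empty-vector replicate 2 (-0.17).

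Against wild-type cells, 5 eIF3 genes rose in T567A cells and 1 fell, numbers that became 3 and 0 without wild-type replicate 1 and 5 and 4 without T567A replicate 3. Eif3e, a subunit also studied for its part in oncogenesis, was at 513 and 464 CPM in the T567A libraries, beside 334 and 341 in the parental, 339 and 344 in the empty-vector, 319 and 349 in the wild-type and 339 and 313 in the T567D libraries. The 2 T567A libraries stood above all 8 others, which overlapped. The difference from wild-type cells was 0.55 ± 0.07 (log2, SE; adjusted p = 9.2e-07), with 0.48 without T567A replicate 2 and 0.62 without T567A replicate 3. Eif3c, a core subunit, rose by 0.33 ± 0.06 (adjusted p = 7.4e-05) and Eif3m by 0.26 ± 0.06 (adjusted p = 0.002). Eif3j1 was at 17.1 and 17.6 CPM in the parental, 17.5 and 16.1 in the empty-vector, 14.4 and 17.9 in the wild-type, 23.1 and 18.5 in the T567A and 14.4 and 14.7 in the T567D libraries. Eif3j1 and Eif3j2, near-identical copies whose reads may be shared, differed by 0.36 and 0.34, and both calls were lost without T567A replicate 2 (0.20 and 0.19) or wild-type replicate 1 (0.20 and 0.26). Eif3b was the 1 that fell (-0.20), a call lost without T567A replicate 2 (-0.14) or wild-type replicate 1 (-0.21). Within the complex the ratio of Eif3e to Eif3b in RPKM was thus 0.737 and 0.615 in the T567A libraries, 0.31 and 0.326 in parental and 0.379 to 0.419 in the other 6. Beside the counts of eIF3 genes in T567A minus wild-type cells, 20.4% of all genes rose and 19.1% fell.

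**Figure D3:**
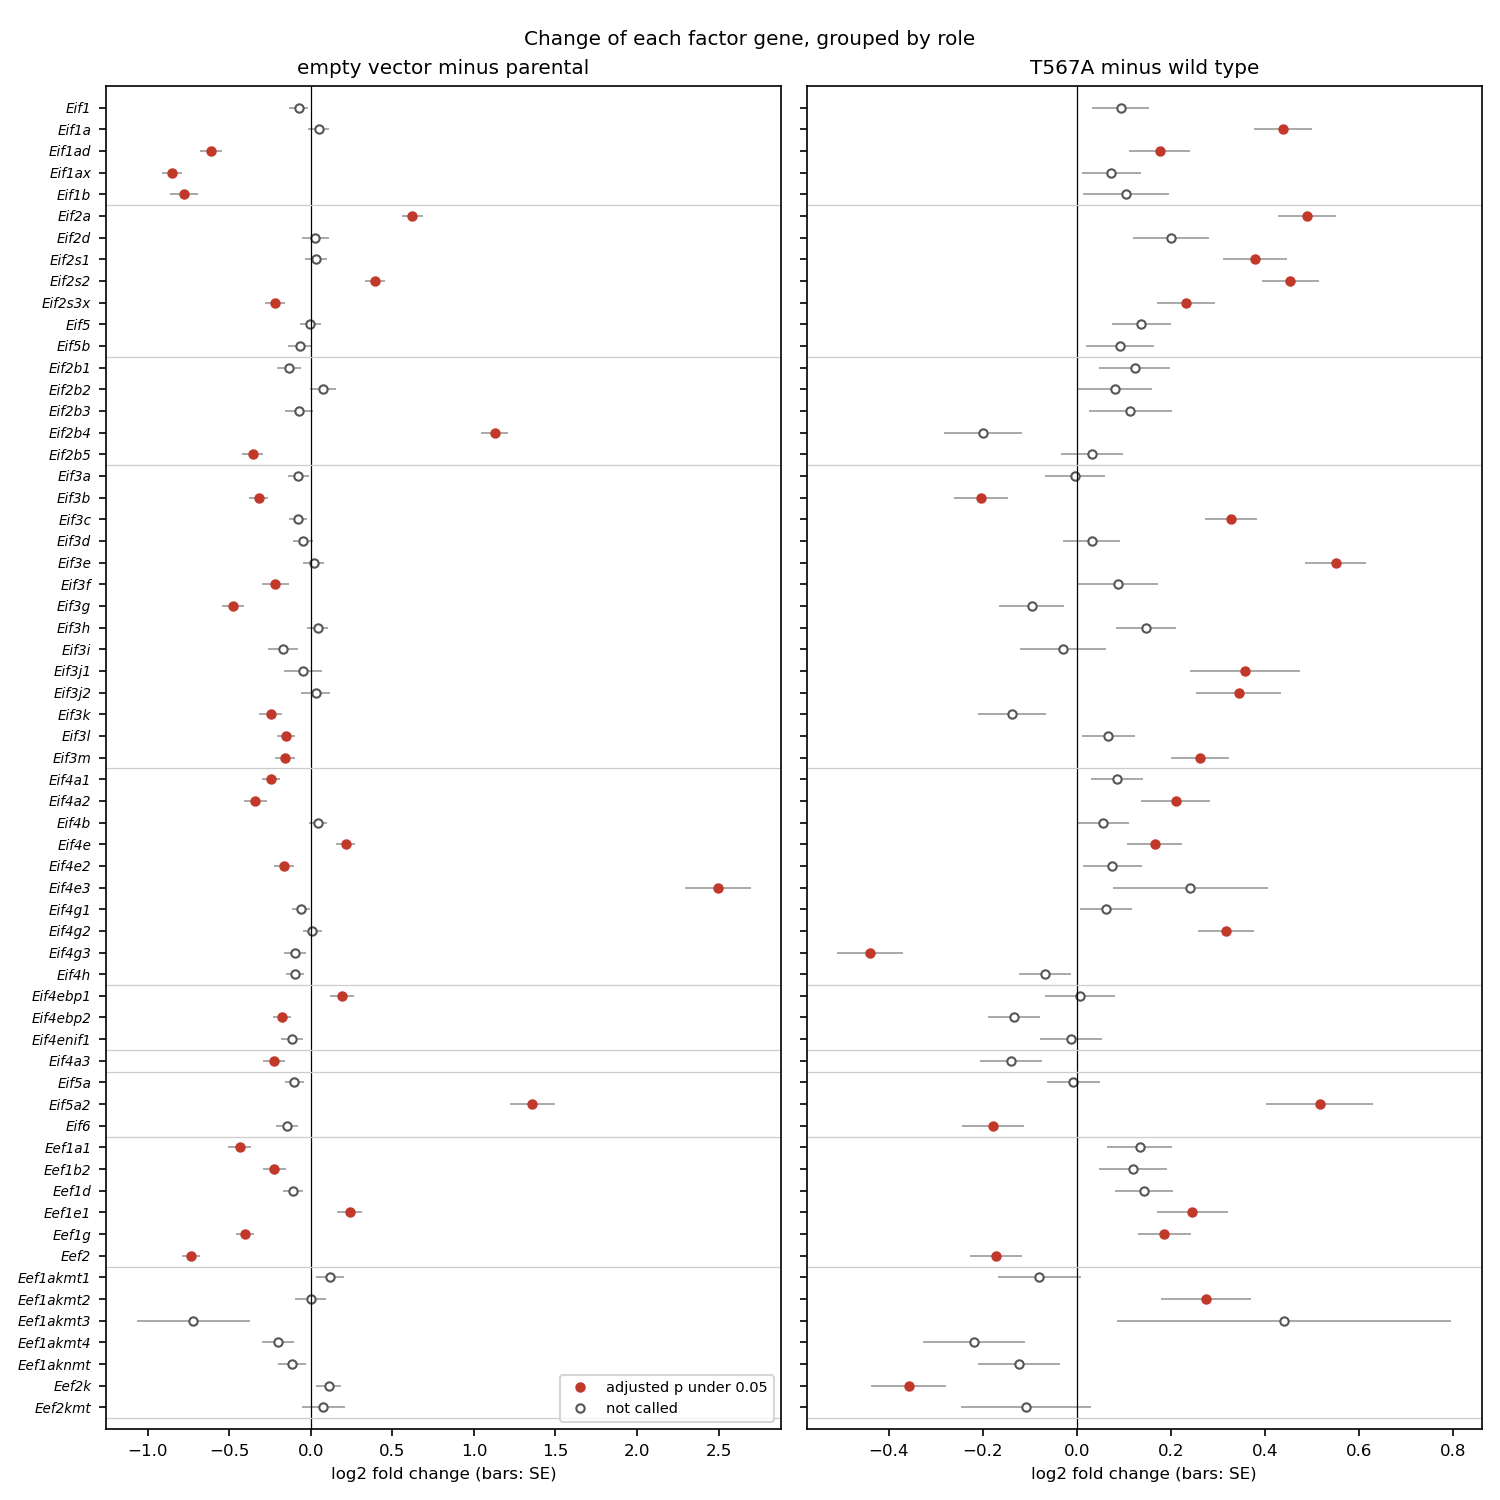
Log2 fold change (points, with SE bars) of each tested member except the Eif4a3 copies, in rows by role, for empty-vector minus parental (left) and T567A minus wild-type cells (right); filled red points have an adjusted p under 0.05 and the 2 horizontal scales differ. On the left Eif4e3 (2.49) and Eif5a2 (1.36) lie farthest right and Eif1ax (-0.85) farthest left, and on the right Eif3e (0.55) lies opposite Eif4g3 (-0.44).

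Of 10 genes for cap-binding and other eIF4F factors, 2 rose and 3 fell in empty-vector minus parental cells, and 1 rose when parental replicate 3 was dropped. Over all genes, 27.4% rose and 27.2% fell in empty-vector minus parental cells. Eif4e, the main cap-binding protein, was at 267 and 262 CPM in the parental, 305 and 308 in the empty-vector, 269.7 and 273 in the wild-type, 293 and 316 in the T567A and 289.8 and 274 in the T567D libraries. Eif4e2, a cap-binding paralog linked to repression, was at 116 and 112 CPM in the parental and 93 to 104 in the derived libraries, a change of -0.27 ± 0.06 in T567D cells (adjusted p = 0.00084). Eif4e3, an atypical cap-binding paralog, was at 1.34 and 1.34 CPM in the parental, 6.89 and 8.27 in the empty-vector, 5.35 and 4.57 in the wild-type, 6.14 and 5.62 in the T567A and 6.01 and 5.2 in the T567D libraries. Every derived library exceeded both parental ones by more than the spread within a line. The log2 change was 2.49 ± 0.20 in empty-vector cells (adjusted p = 9.7e-10), 1.88 in the wild-type, 2.12 in the T567A and 2.06 in the T567D line. On log2(RPKM + 1), where low values weigh less, these were 1.36, 0.94, 1.09 and 1.06. An unnamed gene model, Gm20696, overlaps Eif4e3. The wild-type line was below the empty-vector line by 0.61 in that gene (a log2 difference of -0.61 ± 0.16, adjusted p = 0.01), a call lost without empty-vector replicate 3 (-0.48) or wild-type replicate 3 (-0.51).

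Of the eIF4G scaffolds, Eif4g1 was at 1290 and 1301 CPM in the parental, 1214 and 1268 in the empty-vector, 1151 and 1132 in the wild-type, 1183 and 1200 in the T567A and 1192 and 1137 in the T567D libraries. Eif4g3, its minor paralog, was at 78.1 and 74.7 CPM in the T567A libraries, 103 and 114 in the parental, 98.4 and 104 in the empty-vector, 107 and 100.5 in the wild-type and 104 and 101 in the T567D libraries. The T567A libraries lay below the other 8. The difference from wild-type cells was -0.44 ± 0.07 (adjusted p = 3.7e-05), from T567D cells -0.42 and from parental cells -0.51. Eif4g2, a scaffold that cannot bind eIF4E, was at 1738 and 1623 CPM in the T567A libraries and 1315 to 1512 in the others. It rose by 0.32 ± 0.06 over wild-type cells (adjusted p = 0.00024). The helicase gene Eif4a1 was at 1280 and 1253 CPM in the parental, 1072 and 1064 in the empty-vector, 1003 and 1023 in the wild-type, 1050 and 1100 in the T567A and 1059 and 1017 in the T567D libraries. Both parental libraries lay above the derived ones. Its log2 change was -0.25 ± 0.06 in empty-vector cells (adjusted p = 0.00074), -0.32 in the wild-type, -0.24 in the T567A and -0.29 in the T567D line. Its paralog Eif4a2 was at 255 and 264 CPM in the parental, 204 and 206 in the empty-vector, 239 and 237 in the wild-type, 301 and 250 in the T567A and 199 and 220 in the T567D libraries, and T567A exceeded T567D cells by 0.39 ± 0.07 (adjusted p = 0.0002), with 0.26 without T567A replicate 2. Eif4b, which stimulates the helicase, was not called in any comparison, at 900.1 and 921 CPM in the parental, 941 and 935 in the empty-vector, 906 and 935 in the wild-type, 949 and 962 in the T567A and 933 and 883 in the T567D libraries. Eif4h, a related RNA-binding helper of the helicase, was at 538 and 524.5 CPM in the parental and 445 to 499 in the derived libraries, a change of -0.25 in T567A minus parental cells.

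The eIF4E-binding proteins differed in their patterns. Eif4ebp1, the best known target of mTORC1 among them, was at 126 and 128 CPM in the parental, 150 and 140 in the empty-vector, 136 and 131 in the wild-type, 123 and 145 in the T567A and 114 and 127 in the T567D libraries, with most lines overlapping. Its 1 call, 0.19 in empty-vector minus parental cells, was lost without parental replicate 1 (0.17), parental replicate 3 (0.19) or empty-vector replicate 2 (0.14). Eif4ebp2 was at 386 and 390 CPM in the parental, 337 and 348 in the empty-vector, 330 and 329 in the wild-type, 298 and 302 in the T567A and 363 and 374 in the T567D libraries. The T567A libraries were the lowest. Eif4ebp2 changed by -0.37 ± 0.06 in T567A minus parental (adjusted p = 6.9e-06) and by -0.30 in T567A minus T567D cells. Eif4enif1, which carries eIF4E into the nucleus, differed from parental cells by -0.25 in wild-type and -0.27 in T567A cells.

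eIF5A is the only known protein that carries the amino acid hypusine. Its main gene, Eif5a, was at 1384 and 1325 CPM in the parental, 1299 and 1225 in the empty-vector, 1130 and 1119 in the wild-type, 1099 and 1139 in the T567A and 1150 and 1198 in the T567D libraries. Eif5a2, the second gene (chromosome 3, 28781276 to 28798846), was at 8.25 and 6.94 CPM in the parental, 18.8 and 20.2 in the empty-vector, 18.2 and 20.7 in the wild-type, 31.6 and 24.4 in the T567A and 20.2 and 19.1 in the T567D libraries. All derived libraries lay above the parental ones, with those of T567A highest. Eif5a2 rose over parental cells by 1.36 ± 0.14 in empty-vector cells (adjusted p = 3.2e-08), and by 1.35 in the wild-type, 1.87 in the T567A and 1.37 in the T567D line. T567A exceeded wild-type cells by 0.52 ± 0.11 (adjusted p = 0.0011), with 0.33 without T567A replicate 2 and 0.69 without T567A replicate 3. Eif5a2 stayed a minor part of eIF5A RNA: its ratio to Eif5a in RPKM was 0.00282 and 0.00248 in parental and 0.00683 to 0.0136 in derived libraries. Eif6, which keeps the large ribosomal subunit from joining too early, was at 321 and 302 CPM in the parental, 296 and 267 in the empty-vector, 248 and 238 in the wild-type, 206 and 223 in the T567A and 240 and 252 in the T567D libraries. It changed by -0.54 ± 0.07 in T567A (adjusted p = 4.1e-07), -0.36 in wild-type and -0.34 in T567D minus parental cells, and the empty-vector line was not called (-0.15).

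**Figure D4:**
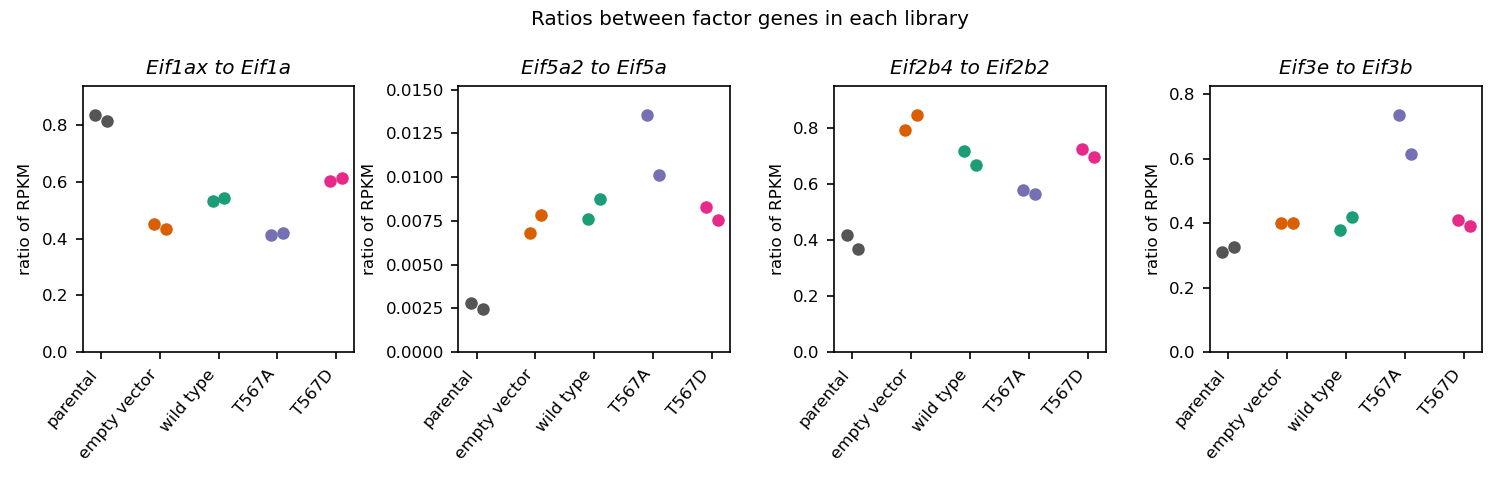
Ratio of the RPKM of 2 members in each library (points; axes from 0), by line. Eif1ax to Eif1a falls from 0.838 and 0.816 in the parental libraries to 0.612 or less, Eif5a2 to Eif5a and Eif2b4 to Eif2b2 are lowest in parental libraries, and Eif3e to Eif3b is highest in T567A libraries (0.737 and 0.615).

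Eif4a3, a helicase of the exon junction complex that shares its name with the eIF4A family, was at 188 and 179 CPM in the parental, 161 and 153 in the empty-vector, 176 and 196 in the wild-type, 162 and 175 in the T567A and 161 and 161 in the T567D libraries. Its copies Eif4a3l1 and Eif4a3l2 had 0 counts in both parental libraries and 12 and 9 counts over the empty-vector libraries, 31 and 19 over the wild-type, 60 and 33 over the T567A and 25 and 20 over the T567D libraries. In CPM, Eif4a3l1 was at 0.283 and 0.405 in the empty-vector, 0.756 and 1.03 in the wild-type, 1.52 and 2.12 in the T567A and 0.635 and 0.818 in the T567D libraries. Eif4a3l2 was at 0.339 and 0.173 CPM in the empty-vector, 0.349 and 0.743 in the wild-type, 1.1 and 0.946 in the T567A and 0.982 and 0.175 in the T567D libraries, with lines overlapping. Set against a floor of 3 counts per parental library, Eif4a3l1 was at least 1.96-fold higher in empty-vector, 5.1-fold in the wild-type, 10.4-fold in the T567A and 4.15-fold in the T567D line. For Eif4a3l2 these bounds were 1.46-fold, 3.12-fold, 5.86-fold and 3.31-fold. Its empty-vector call was lost with limma on log2(RPKM + 1) or log2(RPKM + 0.1), and its wild-type and T567D calls with the first of these. These copies are close to Eif4a3 in sequence, so how reads were divided among them is uncertain.

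Lists of related genes outside the set were read for the same lines, by their counts and medians. Over all genes, 20.4% rose and 19.1% fell in T567A minus wild-type cells, and 27.4% and 27.2% in empty-vector minus parental cells. A list count near these shares is not read as a change of that list. Of 19 tested genes of the ATF4 programme, which eIF2 alpha phosphorylation turns on through translation of Atf4 mRNA, 12 rose and 2 fell in T567A minus wild-type cells, with a median log2 difference of 0.40 beside 0.00 over all genes. Without single libraries of these lines 12 to 15 rose and 0 to 2 fell. Atf4 was at 549.3 and 596.4 CPM in the T567A libraries and 330.6 to 451.2 in the others, and it rose by 0.59 ± 0.06 (adjusted p = 6.4e-08). Slc7a11, the cystine transporter, was at 41.1 and 39.1 CPM in the T567A, 18 and 16.4 in the wild-type and 8.95 and 11.8 in the parental libraries, and rose by 1.22 ± 0.11 (adjusted p = 1.5e-08). Against T567D cells 14 of the list rose and 2 fell, beside 22.5% and 21.6% of all genes. In empty-vector minus parental cells 9 rose and 4 fell, beside 27.4% and 27.2% of all genes. The median of the list was -0.004 there, beside 0 over all genes, so the list as a whole was not shifted. Trib3, a pseudokinase target of ATF4, led the increases (1.30 ± 0.09).

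Of 9 tested eIF2 kinases and regulators, 2 rose and 1 fell in T567A minus wild-type cells, beside 20.4% and 19.1% of all genes. Eif2ak2 (PKR, a kinase activated by double-stranded RNA and induced by interferon) was at 260.7 and 220.7 CPM in the T567A libraries and 91.9 to 131.6 in the others, a difference of 1.05 ± 0.08 (adjusted p = 6.9e-10). Gcn1, an activator of the kinase GCN2, differed by -0.40. Of 22 genes for cytosolic aminoacyl-tRNA synthetases and their scaffolds, 14 rose in T567A minus wild-type cells and the other 8 were not called, with a median of 0.27. Without single libraries 13 to 15 rose and 0 to 2 fell. Cars (0.47), Lars (0.46) and Tars (0.44) led. The same list had 1 gene higher and 12 lower in wild-type minus parental cells, beside 27.7% and 28.5% of all genes. In T567D minus parental cells it had 1 and 16, beside 27.1% and 28.2%. Of 10 mitochondrial translation factors, 4 rose and 1 fell in T567A minus wild-type cells, with 2 higher without wild-type replicate 3, beside the higher mitochondrial share of counts in T567A libraries, whose part in these differences was not tested.

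Of 19 genes of mTORC1 and eIF4F signalling, 6 rose and 5 fell in empty-vector minus parental cells, and 4 rose and 6 fell in T567A minus wild-type cells (2 and 4 without wild-type replicate 1). For this and the following lists, 27.4% of all genes rose and 27.2% fell in empty-vector minus parental cells. In T567A minus wild-type cells these shares were 20.4% and 19.1%. Rheb, the GTPase that activates mTORC1, was at 117 and 102.1 CPM in the parental libraries and 181.2 to 243.8 in derived ones, an increase of 1.14 ± 0.07 in empty-vector cells (adjusted p = 4.8e-12). Rps6kb1, the S6 kinase, was at 97.1 and 93.9 CPM in the T567A libraries and 64.1 to 65.6 in wild-type ones, a difference of 0.56 ± 0.06 (adjusted p = 6.6e-07). Among 11 enzymes for selenocysteine, hypusine and diphthamide, 2 rose and 3 fell in empty-vector cells, with 0 or 1 higher and 3 lower without single libraries of either line. Dph7, an enzyme of diphthamide, the modified histidine of eEF2, was at 32.7 and 32 CPM in parental and 4.85 to 7.69 in derived libraries, with no overlap. It fell by 2.19 ± 0.12 on the log2 scale in empty-vector cells (adjusted p = 1.4e-12). The other diphthamide genes of the list had no such fall, with means of 11 to 41.1 CPM in parental and 11.3 to 40.2 in empty-vector cells. Whether the lower Dph7 and the lower Eef2 are related was not tested. Of 18 poly-A binding and accessory genes, 5 rose and 3 fell in empty-vector minus parental cells and 4 rose and 4 fell in T567A minus wild-type cells; without wild-type replicate 1 the latter were 3 and 2. Of 8 genes for termination and ribosome recycling, these numbers were 2 and 2, then 2 and 1, which became 1 and 1 without wild-type replicate 1. Abce1, which splits ribosomes after termination, was at 426.1 and 431.1 CPM in the parental, 316.2 and 322.5 in the empty-vector, 310.5 and 336.9 in the wild-type, 457.3 and 416.7 in the T567A and 353 and 330.9 in the T567D libraries. T567A and parental libraries overlapped above the other lines, and Abce1 rose by 0.43 ± 0.06 in T567A minus wild-type cells (adjusted p = 1.4e-05).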

How the data were processed

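For each of 10 libraries the authors deposited raw counts and RPKM values of 41743 gene names, in separate tables. The build was GRCm38, per the submitters' processing notes. Which aligner, counter and annotation were used, and whether counting used strand, is not given in the sources used here. The deposited counts were whole, and each library's deposited RPKM equals its count over a gene length and 1 factor per library. Poly-A RNA was prepared with dUTP strand marking, per the labels' protocols. No 2 libraries held identical counts, and the libraries of each line differed by more than sampling noise (chi-square per degree of freedom 2.53 to 8.92).

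Groups came from the labels. The low-count filter was filterByExpr with a minimum count of 10 and a minimum total of 15, passed by 12595 genes. All 10 libraries entered 1 robust quasi-likelihood fit in edgeR 4.0.16 (R 4.3.3) with TMM scaling, 5 line means and 5 residual degrees of freedom, and two-sided p-values were adjusted by Benjamini-Hochberg over all genes. A positive log2 fold change means a higher level in the line named first. A floor of 3 counts in a library equals 0.167 to 0.207 CPM and covers counting error only. Alternatives used RLE or upper-quartile scaling, DESeq2 1.42.0, no filter, a block for the replicate number, a fit of only the compared lines' libraries, limma 3.58.1 on log2(RPKM + 1) or log2(RPKM + 0.1), and each library left out in turn.

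The members, role groups and gene lists were chosen with earlier results of these data known. Every member could be named. Values in every library were given for members among the 6 largest called increases or decreases of a comparison with a mean of at least 1 CPM, and for a fixed set of core factors. Genes outside the set were named where they were among the 4 largest called changes of a list in a comparison at 1 CPM or more. Positions are from GENCODE M21 and start sequences from RefSeq (GRCm38.p6). Counts of overlapping genes and of near-identical copies are uncertain, also for members whose overlap is not named above. Figures were drawn with matplotlib 3.10.9.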

Additional observations from a re-analysis of the deposited data

How the results depend on the processing

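Of 201 called values of members in the comparisons of 2 lines, all kept their direction under every alternative, and 121 also kept the call. The counts of called members stayed within 1.5 times under all settings except in wild-type minus empty-vector and T567A minus wild-type cells. For wild-type minus empty-vector cells the count of 11 became 17 with only the libraries of these lines, 7 with limma on log2(RPKM + 1), 7 with limma on log2(RPKM + 0.1), and 2 to 15 with single libraries left out. The count over all genes was then 853 to 2515, against 1966. For T567A minus wild-type cells the count of 24 became 12 to 30 with single libraries left out. The ranges with single libraries left out were 21 to 33 for empty-vector, 26 to 35 for wild-type, 32 to 43 for T567A and 24 to 38 for T567D minus parental cells, 19 to 31 for T567A minus T567D cells, 0 for T567D minus wild-type cells and 42 to 56 over the 5 lines. On limma with log2(RPKM + 0.1), the split of T567D minus parental cells was 8 higher and 19 lower. Where the cause of a change was not shown by fewer samples in the fit, the cause was not tested.

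The replicate numbers gave no clear sign of pairing: of 14 pairs of libraries with the same number, 2 had deviations correlated above 0.1 (range -0.262 to 0.234), and 1 of 10 libraries correlated best with its own number. The 2 libraries of a line deviate in mirror image, so lines that share both numbers give the same value for each. The 14 pairs are therefore not separate checks, and this check cannot exclude pairing. With the replicate number as a block, which leaves 3 residual degrees of freedom, 22 members were called in empty-vector minus parental, 33 in T567A minus parental, 5 in wild-type minus empty-vector, 14 in T567A minus wild-type and 19 in T567A minus T567D cells. With 2 libraries a line, differences under about 0.2 on the log2 scale often lost their call when 1 library was left out, and T567A libraries had the widest spread.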
